A study of Homo sapiens with 4 samples.

Results

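The genes that write, copy and erase cytosine methylation in DNA, together with the core of Polycomb repressive complex 2 (PRC2), were followed in RNA-seq of an acute myeloid leukemia (AML) cell line before and after knockdown of ANP32B, a histone chaperone. The 10 members were chosen by name: the DNA methyltransferases DNMT1, DNMT3A and DNMT3B, the methylation reader UHRF1, the dioxygenases TET1, TET2 and TET3, and the PRC2 subunits EZH2, SUZ12 and EED. Of these, 9 had a row in the deposited table of 18567 genes, and all 9 passed the filter on low values that left 16817 genes for testing. TET1 was not analysed here.

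The labels describe 4 samples of Kasumi-1, an established line from an AML with the t(8;21) translocation, with 2 samples in a control group (NC) and 2 in which a short hairpin RNA targeted ANP32B (sh-ANP32B). By the labels the NC samples received no treatment and no hairpin, but the study's methods name a control hairpin, and which of the study's ANP32B hairpins the sh-ANP32B samples carried is not given in the sources used here. Nothing states that the samples of a group were separate cultures, so p-values measure the spread between these samples, which may be technical. All values are TPM, a unit of transcript abundance that scales each gene by its length and by the total of its sample, so that levels can be compared between genes but sequencing depth is unknown.

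The targeted gene, ANP32B, measured 384 and 392 TPM in the NC samples and 51.8 and 41.2 TPM in the sh-ANP32B samples. The libraries labelled Kasumi-1 did not carry the full marker pattern of that line. CD33, a myeloid surface antigen, measured between 58.5 and 70.1 TPM, and RUNX1T1, the partner gene of the translocation, between 15.6 and 31.2 TPM. The stem cell factor receptor gene KIT, by contrast, did not exceed 3.41 TPM in any library. HOXA9 measured at least 150.2 TPM in every library, and HOXA genes are generally low in AML with this translocation. CD34 and MPO were not analysed here. Low KIT and high HOXA9 were found in all 4 libraries, and the cells are called here by their label. The levels of these markers were not the same in the groups: RUNX1T1 measured 17.6 and 15.6 TPM in NC against 31.2 and 26.8 TPM in sh-ANP32B samples, KIT 1.55 and 2.31 against 3.41 and 2.76 TPM, and HOXA9 156 and 150.2 against 169 and 194 TPM. None of these passed the adjusted limma threshold.

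DNMT1 restores methylation on the new DNA strand after replication, and UHRF1 recruits it by binding hemimethylated sites. DNMT3A and DNMT3B place methylation on unmethylated DNA, and the TET enzymes oxidize 5-methylcytosine, which opens the way to its removal. PRC2 methylates lysine 27 of histone H3 through EZH2 or its paralog EZH1, with SUZ12 and EED as obligatory partners. DNMT3A and TET2 are recurrently mutated in AML, and EZH2 and DNMT1 are commonly transcribed more in dividing than in resting cells.

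Promoter stretches of UHRF1, EZH2, EZH1 and TET3 are shown here with short words marked. The windows were the 250 bases before each RefSeq gene start (GRCh38.p14), and each stretch printed here was ended before any GENCODE exon of the gene that reaches into the window. The UHRF1 stretch lies within the annotated gene, downstream of its most upstream annotated start. Capitals mark the CCAAT word and its reverse complement ATTGG, the words TTTCCCGC, TTTCGCGC, TTTGCCGC and TTTGGCGC or their reverse complements, which fit the E2F binding motif, and the E-box CACGTG, the core motif of MYC and related factors. The marked words did not overlap each other. As printed, the stretches of UHRF1 and EZH2 hold only CCAAT or its reverse complement, that of EZH1 an E2F word and that of TET3 the E-box.
UHRF1, chr19:4909251-4909429, plus strand: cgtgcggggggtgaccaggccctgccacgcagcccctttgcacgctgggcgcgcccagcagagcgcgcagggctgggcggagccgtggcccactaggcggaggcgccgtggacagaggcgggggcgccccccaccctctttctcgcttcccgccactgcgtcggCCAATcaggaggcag
EZH2, chr7:148884322-148884541, minus strand: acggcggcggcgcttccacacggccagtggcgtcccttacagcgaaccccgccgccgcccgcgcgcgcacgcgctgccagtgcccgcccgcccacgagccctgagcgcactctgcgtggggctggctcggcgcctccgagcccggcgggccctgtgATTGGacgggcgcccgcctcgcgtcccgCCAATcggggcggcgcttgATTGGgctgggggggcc
EZH1, chr17:42745050-42745290, minus strand: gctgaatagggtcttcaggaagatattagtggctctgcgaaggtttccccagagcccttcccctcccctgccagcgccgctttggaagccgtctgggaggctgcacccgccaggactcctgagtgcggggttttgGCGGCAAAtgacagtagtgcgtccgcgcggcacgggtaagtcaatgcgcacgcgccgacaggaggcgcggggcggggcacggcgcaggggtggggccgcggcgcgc
TET3, chr2:73984660-73984909, plus strand: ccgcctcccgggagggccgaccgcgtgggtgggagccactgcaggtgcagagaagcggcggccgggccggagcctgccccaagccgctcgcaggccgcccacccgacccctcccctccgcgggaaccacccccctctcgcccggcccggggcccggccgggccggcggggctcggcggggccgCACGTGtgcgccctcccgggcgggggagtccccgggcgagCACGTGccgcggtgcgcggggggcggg

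Across all 35116 RefSeq windows, an E2F word was found in 2.79%, the E-box in 6.34% and CCAAT in 32%, counting both strands. UHRF1 held an E2F word in 2 of its 3 windows. The first was GCGGGAAA at position -14 from the start, in the 71 bases left out of the stretch above because they reach into annotated exons. SUZ12 held an E2F word in its only window, and so did EZH1. No window of DNMT1, DNMT3A, DNMT3B, TET2, TET3, EZH2 or EED held these letters. Of 18 S phase genes with a window, 8 held an E2F word in any of their windows. This counts genes, whereas the 2.79% counts single windows, so the shares are not on the same basis. The E-box was found in 2 of 6 windows of DNMT3A, which overlap and hold the same site at position 25252390 of chromosome 2, in 1 of 2 windows of TET2 and in 1 of 2 of TET3. None of the windows of DNMT1, DNMT3B, UHRF1, EZH2, SUZ12, EED or EZH1 held the E-box. CCAAT was found in 1 of 2 windows of EZH2, which held 4 such words, of which 3 lie in the stretch above. It was also found in 2 of 3 windows of UHRF1, in 1 of 2 of TET3 and in the only windows of DNMT3B, SUZ12 and EED. None of the windows of DNMT1, DNMT3A, TET2 or EZH1 held it. These matches are descriptions of sequence, and the words were chosen with the expression values known.

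In the NC samples, DNMT1 was the most abundant member with a mean of 212 TPM ± 3.56 (SD, n = 2). EZH2 followed with 102 TPM, SUZ12 with 81.6 TPM and UHRF1 with 77.1 TPM. Below these lay EED with 36.9 TPM, DNMT3B with 32.7 TPM, TET3 with 24.5 TPM, TET2 with 9.95 TPM and DNMT3A with 8.38 TPM. The NC samples of SUZ12 and UHRF1 overlapped, as did those of EED and DNMT3B, and these neighbours in the order did not differ beyond their spread. The maintenance enzyme thus made up 83.8% ± 0.698 of the TPM of the 3 methyltransferases in NC cells, and DNMT3A 3.31% ± 0.0308.

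**Figure D1:**
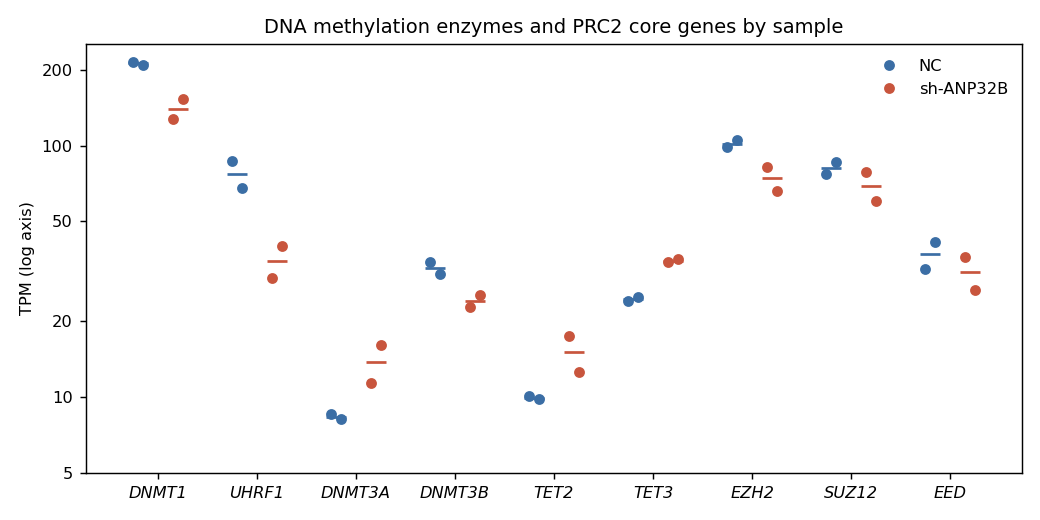
Level of each of the 9 members in TPM on a log axis, with points for the 4 samples and a line at the mean of each group of 2. DNMT1, UHRF1, DNMT3B and EZH2 lay lower and DNMT3A, TET2 and TET3 higher in both sh-ANP32B samples than in both NC samples, while the groups overlapped for SUZ12 and EED.

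The genes of maintenance methylation lay lower after knockdown, and UHRF1 was the only member that passed the test. UHRF1 (ENSG00000276043, chr19:4903080-4962154) measured 86.5 and 67.7 TPM in the NC samples and 29.7 and 40.0 TPM in the sh-ANP32B samples. The groups did not overlap. The log2 fold change of TPM + 1 was -1.13 (SE 0.201), with an adjusted p of 0.0440 by limma with Benjamini-Hochberg adjustment over all 16817 genes. The call was lost without NC replicate 1, where the log2 fold change was -0.95 and the limma adjusted p 0.125, and in limma without its abundance trend, where the adjusted p was 0.121. UHRF1 also shares sequence with a processed pseudogene on chromosome 12 (ENSG00000256663, chr12:20551590-20553012), which is identical to it in 99.4% of 1423 aligned bases. That pseudogene was listed at 16.6 and 14.6 TPM in NC against 5.13 and 8.74 TPM in sh-ANP32B samples, so the level of UHRF1 is uncertain to the extent that reads were split between the copies.

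DNMT1 (ENSG00000130816, chr19:10133342-10231286) measured 215 and 209.7 TPM in the NC samples and 127 and 153 TPM in the sh-ANP32B samples. Both sh-ANP32B values lay below both NC values, with a mean of 140.0 TPM ± 18.2 (SD, n = 2). The log2 fold change was -0.60 (SE 0.139), and the limma adjusted p of 0.0678 missed the threshold of 0.05. It met the looser criterion of the study, a log2 fold change past 0.5 in size at an unadjusted p under 0.05. The DNMT1 locus overlaps S1PR2 on the same strand, a receptor gene that measured no more than 9.48 TPM in any sample.

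The de novo enzymes stood on opposite sides. DNMT3A (ENSG00000119772, chr2:25227855-25342590) measured 8.58 and 8.17 TPM in the NC samples and 11.4 and 16.1 TPM in the sh-ANP32B samples. The sh-ANP32B values were the higher ones and spread more widely than the NC values. The log2 fold change was 0.64 (SE 0.224) with a limma adjusted p of 0.153. DNMT3B (ENSG00000088305, chr20:32762385-32809359) measured 34.5 and 30.9 TPM in the NC samples and 22.8 and 25.4 TPM in the sh-ANP32B samples. Its sh-ANP32B values were the lower ones, with a log2 fold change of -0.43 (SE 0.160) and a limma adjusted p of 0.175. Neither gene passed the adjusted threshold.

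A ratio within a sample does not depend on the scaling between samples. The ratio of DNMT3A to DNMT3B was 0.249 and 0.264 in the NC samples and 0.501 and 0.635 in the sh-ANP32B samples. The log2 ratio differed by 1.14 (SE 0.175), and the groups did not overlap. With 2 samples a group the smallest two-sided p of an exact permutation test is 0.333, so that test could not pass the threshold for any ratio, and no p is given for the ratios. DNMT3A accounted for 7.68% ± 0.848 (SD, n = 2) of the TPM of the 3 methyltransferases in sh-ANP32B samples, and DNMT1 for 78.7% ± 0.0858.

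The dioxygenases measured here were higher after knockdown, without passing the test. TET2 (ENSG00000168769, chr4:105145875-105279816) measured 10.1 and 9.80 TPM in the NC samples and 17.5 and 12.6 TPM in the sh-ANP32B samples. Its log2 fold change was 0.54 (SE 0.216) with a limma adjusted p of 0.198. TET3 (ENSG00000187605, chr2:73984910-74108176) measured 24.1 and 24.9 TPM in the NC samples and 34.3 and 35.4 TPM in the sh-ANP32B samples. The replicates of TET3 lay close together in both groups, and the groups did not overlap. Its log2 fold change was 0.49 (SE 0.149) with a limma adjusted p of 0.116. A long noncoding RNA (ENSG00000235499) overlaps TET3 on the same strand, with 390 bases in common, and measured between 14.2 and 22.6 TPM. TET3 made up 71.1% of the TPM of TET2 and TET3 in NC samples and 70.0% in sh-ANP32B samples, with overlapping values.

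Of the PRC2 core, the catalytic subunit was separated between the groups and its partners were not. EZH2 (ENSG00000106462, chr7:148807257-148884321) measured 98.5 and 105 TPM in the NC samples and 82.0 and 65.9 TPM in the sh-ANP32B samples. Both sh-ANP32B values were below the NC values. The log2 fold change was -0.46 (SE 0.154), and the limma adjusted p of 0.138 missed the threshold. SUZ12 (ENSG00000178691, chr17:31937007-32001038) measured 77.0 and 86.1 TPM in NC against 78.4 and 60.3 TPM in sh-ANP32B samples, with a log2 fold change of -0.24 (SE 0.169) and a limma adjusted p of 0.436. The groups of SUZ12 overlapped. It shares 95% identity over 1023 bases with the pseudogene SUZ12P1, which measured between 40.5 and 47.7 TPM. EED (ENSG00000074266, chr11:86201212-86278813) measured 32.4 and 41.5 TPM in NC against 35.9 and 26.7 TPM in sh-ANP32B samples, with a log2 fold change of -0.24 (SE 0.207) and a limma adjusted p of 0.538. Its groups overlapped too.

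EZH1, the alternative catalytic subunit that is characteristic of resting cells, lay on the opposite side to EZH2. It measured 46.0 and 48.6 TPM in the NC samples and 78.5 and 69.8 TPM in the sh-ANP32B samples, with a log2 fold change of 0.64 (SE 0.141) and a limma adjusted p of 0.0614. The ratio of EZH2 to EZH1 was 2.14 and 2.16 in the NC samples and 1.04 and 0.945 in the sh-ANP32B samples. The log2 ratio differed by -1.12 (SE 0.0727), and the groups did not overlap. EZH2 thus made up 68.3% ± 0.135 (SD, n = 2) of the TPM of the 2 paralogs in NC cells and 49.8% ± 1.77 in sh-ANP32B cells.

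**Figure D2:**
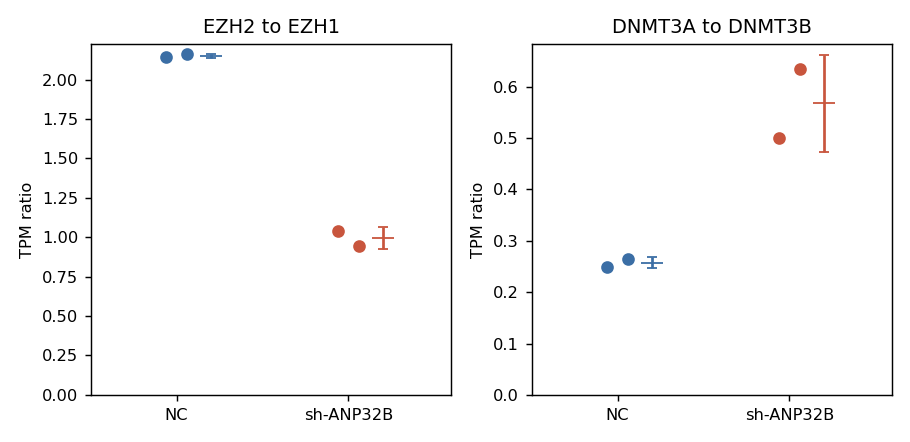
Ratio of EZH2 to EZH1 and of DNMT3A to DNMT3B within each sample, computed from TPM, with the mean and SD of each group of 2 beside the points. The EZH2 to EZH1 ratio lay at 2.14 and 2.16 in NC and at 1.04 and 0.945 in sh-ANP32B samples, and the DNMT3A to DNMT3B ratio at 0.249 and 0.264 against 0.501 and 0.635.

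Read against the whole table, 1 of the 9 members fell and 0 rose at an adjusted p under 0.05 by limma, where 1.18% of all genes tested fell and 2.14% rose. At an unadjusted p under 0.05 by limma, 4 members were lower and 3 higher, beside 8.72% and 15.0% of all genes. By the criterion of the study, 2 members were lower (DNMT1 and UHRF1) and 2 higher (DNMT3A and TET2), beside 6.55% of all genes lower and 12.1% higher. The groups did not overlap with sh-ANP32B lower in 4 members and higher in 3, beside 21.4% and 33.2% of all genes. The median log2 fold change of the members was -0.24, and that of all genes was 0.08. The counts of called members depended on the samples used: 0 fell and 0 rose without NC replicate 1, where 0.476% of all genes fell and 1.45% rose by limma. Without sh-ANP32B replicate 1, 4 members fell and 2 rose, beside 9.68% and 14.6% of all genes. Without sh-ANP32B replicate 2, 3 members fell and 2 rose, beside 8.47% and 12.3% of all genes. With median-of-ratios scaling in place of TPM, 1 member fell and 0 rose at the adjusted limma threshold. Of all genes 288 then fell and 230 rose at that threshold, in place of 199 and 360.

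The GC content of the transcripts moved with the spread between the sh-ANP32B replicates. The 4 members with a GC content of 33.0% to 43.0% (TET2, EZH2, SUZ12 and EED) were lower in sh-ANP32B replicate 2 than in replicate 1. The 5 members with 53.2% to 55.2% (DNMT1, DNMT3A, DNMT3B, UHRF1 and TET3) were higher in replicate 2. Across 15427 genes within these libraries, which are not independent replicates, Spearman's rho between GC content and the difference of the replicates was 0.577 in sh-ANP32B and -0.206 in NC. With a correction for GC content in each sample, 4 members passed the adjusted limma threshold lower and 1 higher, beside 7.91% and 8.03% of all 15427 genes in that fit. DNMT1 then stood at -0.70 on the log2 scale (adjusted p 0.00761), DNMT3B of -0.51 (0.0259), EZH2 of -0.48 (0.0159) and TET3 of 0.42 (0.0419), beside UHRF1.

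**Figure D3:**
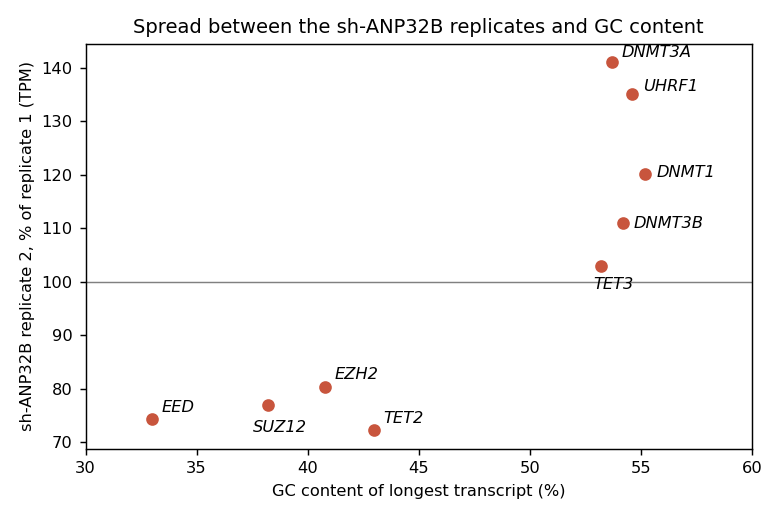
Level in sh-ANP32B replicate 2 as a percentage of replicate 1 (TPM) against the GC content of the longest transcript of each of the 9 members. The 4 members at 33.0% to 43.0% GC lie under the line at equal levels, and the 5 at 53.2% to 55.2% lie above it.

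Partners of methylation maintenance fell in part alongside UHRF1. Of 9 genes tested, 3 fell and 0 rose at the adjusted limma threshold, 5 were lower and 1 higher at an unadjusted p under 0.05, and the median log2 fold change was -0.46. PCNA, the sliding clamp that brings DNMT1 to replication forks, measured 312 and 302 TPM in NC against 162 and 154 TPM in sh-ANP32B samples. Its log2 fold change was -0.95 (SE 0.120) with a limma adjusted p of 0.0299. HELLS, a chromatin remodeller needed for DNA methylation, had a log2 fold change of -1.20 (SE 0.215) with a limma adjusted p of 0.0440. CDCA7, its activator, had -0.76 (SE 0.134) with a limma adjusted p of 0.0440. The number that fell was 1 without NC replicate 1 and 0 without NC replicate 2. Without these samples in turn, the limma adjusted p was 0.106 and 0.0841 for PCNA and 0.223 and 0.296 for CDCA7. For HELLS it was 0.0741 without NC replicate 2. UHRF2, the paralog of UHRF1, measured 70.8 and 79.9 TPM in NC against 99.3 and 74.3 TPM in sh-ANP32B samples, with overlapping groups. DNMT3L, a catalytically inactive paralog of the de novo enzymes, was the most positive of the list, with 1.69 and 1.20 TPM in NC against 2.63 and 4.67 TPM in sh-ANP32B samples. Its log2 fold change was 0.90 (SE 0.333) with a limma adjusted p of 0.170.

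**Figure D4:**
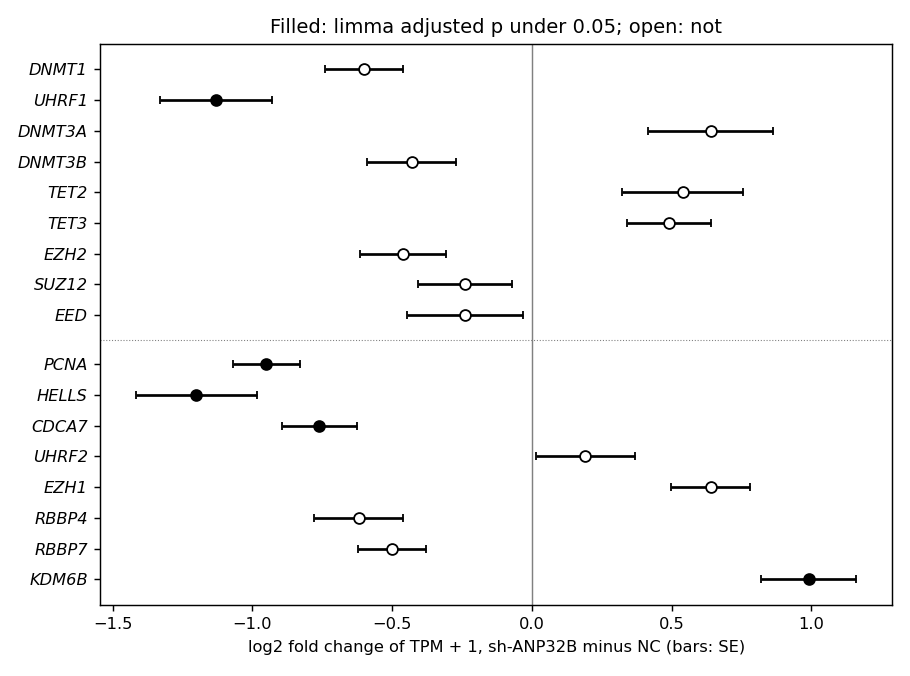
Log2 fold change of TPM + 1, sh-ANP32B minus NC, with SE bars, for the 9 members above the dotted line and 8 related genes under it. Filled points passed the limma adjusted threshold: UHRF1 at -1.13, PCNA at -0.95, HELLS at -1.20, CDCA7 at -0.76 and KDM6B at 0.99.

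The genes listed as readers of methylated DNA, not all of which need bind it, did not pass the test. Of 7 tested, 0 fell and 0 rose by limma, with 0 lower and 1 higher at an unadjusted p under 0.05 and a median of 0.06 that changed sign with the scaling. ZBTB4, a zinc finger repressor that binds methylated sites, had the largest difference with a log2 fold change of 0.76 (adjusted p 0.0598). The most negative of the list was MBD3, a subunit of a deacetylase complex, with -0.28.

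Of 9 genes that act with or downstream of the TET enzymes or supply their cofactor, 1 fell and 0 rose at the adjusted limma threshold. At an unadjusted limma p under 0.05, 1 of these genes was lower and 1 higher. Their median was 0.08, and it changed sign with median-of-ratios scaling. IDH2, the mitochondrial isocitrate dehydrogenase that makes the TET cofactor 2-oxoglutarate, measured 229 and 232 TPM in NC against 129.7 and 151 TPM in sh-ANP32B samples. Its log2 fold change was -0.71 (SE 0.133) with a limma adjusted p of 0.0455. The call was lost without NC replicate 1 (adjusted p 0.294) and without NC replicate 2 (0.343). OGT, a glycosyltransferase that binds TET proteins, had the most positive value in that list at 0.42, with a limma adjusted p of 0.156. Of 4 genes for the supply of the methyl donor S-adenosylmethionine, 0 fell and 0 rose at the adjusted limma threshold and 2 were lower at an unadjusted p under 0.05. Their median was -0.24, and their log2 fold changes ran from -0.37 for MAT2A to 0.15 for MAT2B.

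The other PRC2 subunits did not move together. Of 11 tested, 0 fell and 0 rose at the adjusted limma threshold, while 2 were lower and 2 higher at an unadjusted p under 0.05 and by the criterion of the study, and the median of 0.03 changed sign with the scaling. RBBP4, a histone-binding subunit, measured 159 and 152 TPM in NC against 115 and 89.1 TPM in sh-ANP32B samples, with a log2 fold change of -0.62 at an adjusted p of 0.0819 by limma. Its paralog RBBP7 measured 163 and 168 TPM in NC against 115 and 118 TPM in sh-ANP32B samples, with a log2 fold change of -0.50 at an adjusted p of 0.0736 by limma. Both also belong to other chromatin complexes. PHF1, an accessory subunit that targets PRC2, measured 13.2 and 8.72 TPM in NC against 20.9 and 36.3 TPM in sh-ANP32B samples, with a log2 fold change of 1.28 at an adjusted p of 0.0724 by limma.

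Of 22 subunits of PRC1, the complex that ubiquitinates histone H2A, 0 fell and 0 rose at the adjusted limma threshold, and 2 were lower and 5 higher at an unadjusted p under 0.05. By the criterion of the study 4 were higher and 0 lower, and the median was 0.13. The most negative log2 fold change was -0.46, for the ubiquitin ligase RNF2.

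Of 5 genes whose products remove these marks, 1 rose and 0 fell at the adjusted limma threshold, and the median was -0.03. KDM6B, a demethylase of lysine 27 of histone H3, measured 32.4 and 31.1 TPM in NC against 56.4 and 73.1 TPM in sh-ANP32B samples. Its log2 fold change was 0.99 (SE 0.171) with a limma adjusted p of 0.0435. The call was lost without NC replicate 1 (adjusted p 0.0821), without NC replicate 2 (0.122) and with median-of-ratios scaling (0.0509). ASXL2, a partner of the H2A deubiquitinase BAP1, had the most negative value of that list at -0.17.

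Developmental regulators that PRC2 commonly represses gave few values. Of 12 such genes, 6 were tested. At the adjusted limma threshold 0 fell and 0 rose, 1 was higher at an unadjusted p under 0.05, and the median was 0.19. The cell cycle inhibitor CDKN2B measured 1.67 and 1.97 TPM in NC against 4.75 and 5.87 TPM in sh-ANP32B samples, with a log2 fold change of 1.16 at an adjusted p of 0.0652 by limma. PAX6, a regulator of eye and brain development, had the most negative value at -0.17. Named after their values were seen, HOXA9 and HOXA10 had log2 fold changes of 0.24 and -0.12, with limma adjusted p-values of 0.316 and 0.670. In the NC samples HOXA9 measured 156 and 150.2 TPM, HOXA10 114 and 116 TPM, and CDKN2A, named likewise, 221 and 216 TPM. These genes were thus not silent in NC cells, which limits what the median of the list says of repressed genes. Of 12 germline genes that DNA methylation commonly silences, 1 was tested. It was SOHLH2, a germ cell transcription factor, which measured 2.17 and 6.69 TPM in NC against 3.45 and 5.15 TPM in sh-ANP32B samples.

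Genes of DNA replication were lower in the sh-ANP32B samples. Of 21 S phase genes tested, 13 fell and 0 rose at the adjusted limma threshold, all 21 were lower at an unadjusted p under 0.05, and the median log2 fold change was -0.88. The number that fell was 1 without NC replicate 1 and 2 without NC replicate 2. The list includes PCNA, which was also counted among the maintenance partners. The largest of the passing changes were those of MCM3 (-1.12), CDC45 (-0.99), CDC6 (-0.98) and MCM6 (-0.95). CDC6 lost its call with a pseudocount of 0.1 (limma adjusted p 0.0522) and without the filter on low values (0.0512). CDC45, CDC6 and MCM6 lost theirs without NC replicate 1 (0.102, 0.142 and 0.110) and without NC replicate 2 (0.123, 0.201 and 0.0989). CCNE2, a cyclin of S phase entry, had the most negative value at -1.18, with a limma adjusted p of 0.0816. The summed level of the list was 3332 and 3361 TPM in NC against 1950 and 1830 TPM in sh-ANP32B samples. Fewer replicating cells and less of these transcripts per cell cannot be told apart in bulk RNA.

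Relative to the mean of MCM2 to MCM7, the replicative helicase, DNMT1 and EZH2 stood apart from UHRF1 in direction, a difference that was not tested. The ratio of DNMT1 to this mean was 0.986 and 0.988 in NC and 1.12 and 1.34 in sh-ANP32B samples, a log2 difference of 0.31 (SE 0.124). That of EZH2 was 0.452 and 0.494 in NC and 0.725 and 0.576 in sh-ANP32B samples, a log2 difference of 0.45 (SE 0.178). DNMT1 and EZH2 were thus higher relative to the helicase genes, with no overlap between the groups, while their own levels were lower. For UHRF1 the ratio was 0.397 and 0.319 in NC and 0.263 and 0.350 in sh-ANP32B samples, a log2 difference of -0.23 (SE 0.261), and the groups overlapped. The part of the S phase genes in the values of the members was not tested.

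Genes of myeloid maturation were higher in the same samples. Of 10 listed, 7 were tested, of which 0 fell and 2 rose at the adjusted limma threshold and 5 were higher at an unadjusted p under 0.05. The log2 fold change was 0.97 for LYZ, which encodes lysozyme (limma adjusted p 0.0281), and 1.89 for ITGAX, an integrin of monocytes and dendritic cells (0.0154). Without NC replicate 1 and without NC replicate 2 in turn, the limma adjusted p of LYZ was 0.105 and 0.0789. The summed level of the list was 711 and 739.5 TPM in NC against 1451 and 1427 TPM in sh-ANP32B samples. Most of this sum was LYZ alone, with 669 and 697 TPM in NC against 1360 and 1316 TPM in sh-ANP32B samples. The sum thus mainly repeats the value of LYZ. PECAM1, an endothelial marker that myeloid cells also express, measured 34.8 and 37.8 TPM in NC against 58.7 and 45.4 TPM in sh-ANP32B samples. The part of maturation or of other cells in the values of the members was not tested.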

How the data were processed

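Total RNA of 4 samples was sequenced from TruSeq libraries. The authors aligned reads to hg38 with HISAT2 2.0.5 per the submitters' processing notes. The deposited values are TPM, identified from columns that sum to between 997812 and 998314. The program behind the TPM values, its annotation and any filter are not given in the sources used here. No row had a mean under 0.5002 TPM. TPM keeps no depth, so no counting interval was computed, and as shares of a sample the values move when abundant transcripts change.

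Symbols, positions and GC content came from GENCODE v44 (16986 of 18567 gene IDs matched), and promoters from RefSeq. Genes that reached 1 TPM in 2 or more samples were compared as log2(TPM + 1), a scale that understates the change of low genes, by limma 3.58.1 with an abundance trend (R 4.3.3), in all 4 samples without a block. Two-sided p-values were adjusted after Benjamini and Hochberg over 16817 genes. The study compared counts with DESeq2, which was not run. The procedure was tested on simulated data, where it missed most of the changes that had been put in. A gene that did not pass may therefore still differ. Near-identical transcripts were sought with BLAST 2.17.0 (at least 90% identity over at least 300 bases). Alternatives were the pseudocount (0.1), filters, scaling, GC correction, replicate block, limma settings and leaving out each sample.

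Members and lists were chosen with earlier results of these data known. All members are named. From each list the genes past the adjusted threshold (at most 4) and the largest difference in each direction at a mean of at least 1 TPM are named, together with EZH1, RBBP4, RBBP7, UHRF2 and DNMT3L. Results that need items withheld for evaluation are not reported here.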

Additional observations from a re-analysis of the deposited data

How the results depend on the processing

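Each member kept the direction of its log2 fold change in all alternatives run. UHRF1 did not pass the adjusted threshold in limma without the abundance trend (-1.13), where 0 members, 0 genes of the lists and 0 genes of the table passed in either direction and 3701 genes (3995 with the trend) stood under an unadjusted p of 0.05. With GC correction 4 members fell (DNMT1 -0.70, DNMT3B -0.51, EZH2 -0.48 and UHRF1) and 1 rose (TET3 0.42), beside 1221 and 1239 of all genes and 33 and 6 of the genes of the lists. The criterion of the study was met by 4 members lower and 1 higher with median-of-ratios scaling. It was met by 0 higher with quantile normalization, and by 1 higher without mitochondrial genes and without the trend. In the main fit 6.55% of all genes met it lower and 12.1% higher. The shares of all genes in these alternatives and with the replicate block are not given here. These counts of members were thus not compared with all genes. At the adjusted threshold 230 of all genes and 0 of the genes of the lists rose with median-of-ratios scaling. With at least 1 TPM required in all 4 samples, 3 genes of the lists rose at that threshold. The causes were not tested.

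The medians of the lists moved by more than their spread between replicates in many alternatives, and those near 0 changed sign. They were -0.55 for maintenance partners, -0.03 for methylated DNA readers, -0.01 for TET partners, -0.33 for methyl donor supply, -0.06 for other PRC2 subunits, 0.04 for PRC1, -0.13 for erasers, -0.97 for S phase genes and 0.10 for PRC2-repressed regulators with median-of-ratios scaling. With quantile normalization they were -0.49 for maintenance partners, -0.00 for methylated DNA readers, 0.04 for TET partners, -0.07 for other PRC2 subunits, 0.07 for PRC1, -0.09 for erasers and -0.93 for S phase genes. Without mitochondrial genes they were -0.51 for maintenance partners, 0.03 for TET partners, -0.02 for other PRC2 subunits, 0.08 for PRC1, -0.08 for erasers and -0.93 for S phase genes. GC correction gave 0.06 for TET partners, -0.02 for other PRC2 subunits, 0.04 for PRC1, -0.12 for erasers, -0.94 for S phase genes and 0.09 for PRC2-repressed regulators. SOHLH2 reversed to -0.07 with quantile normalization.

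The samples with the same replicate number did not deviate together (Pearson's r -0.0925 and Spearman's rho -0.168 across genes within the libraries, which are not independent), so the numbers were not taken to pair them. With the replicate block 491 of all genes fell and 982 rose, 4 genes of the lists rose, 1 member higher met the criterion of the study, and no call of a member changed. The replicate block with GC correction gave 880 and 848 of all genes, 30 and 5 genes of the lists and 3 members lower (DNMT1 -0.70, EZH2 -0.48 and UHRF1), with the same list medians as GC correction alone. A block with the numbers crossed between the groups, added after the data were seen, gave 724 and 1271 of all genes, 26 and 7 genes of the lists and 2 members lower (DNMT1 -0.60 and UHRF1).

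Leaving out 1 sample left its group with a lone sample, assumed to vary like the other group. Log2 fold changes then ran from -0.73 to -0.47 for DNMT1, from 0.41 to 0.87 for DNMT3A, from -0.50 to -0.35 for DNMT3B, from -1.34 to -0.92 for UHRF1, from 0.32 to 0.76 for TET2, from 0.47 to 0.51 for TET3, from -0.62 to -0.31 for EZH2, from -0.43 to -0.05 for SUZ12 and from -0.44 to -0.03 for EED. Members lower numbered from 0 to 4 and higher from 0 to 2, and by the criterion of the study from 1 to 2 and from 0 to 2. Of all genes from 59 to 1628 fell and from 214 to 2451 rose, from 595 to 1479 and from 1289 to 2474 met the criterion, and from 1884 to 6070 stood under an unadjusted p of 0.05. Of the genes of the lists from 2 to 35 fell and from 0 to 16 rose. The list medians ran from -0.53 to -0.37 for maintenance partners, from -0.12 to 0.21 for methylated DNA readers, from 0.00 to 0.19 for TET partners, from -0.27 to -0.17 for methyl donor supply, from -0.06 to 0.08 for other PRC2 subunits, from 0.11 to 0.20 for PRC1, from -0.07 to 0.01 for erasers, from -0.89 to -0.85 for S phase genes and from 0.03 to 0.22 for PRC2-repressed regulators. The log2 ratios ran from -1.19 to -1.04 for EZH2 to EZH1, from 0.97 to 1.31 for DNMT3A to DNMT3B, from 0.19 to 0.44 for DNMT1 to the helicase mean, from -0.44 to -0.02 for UHRF1 to it and from 0.28 to 0.62 for EZH2 to it. The ranges of genes that changed sign were from -0.02 to 0.40 for UHRF2, from -0.17 to 0.46 for MAT2B, from -0.24 to 0.01 for HOXA10 and from -0.56 to 0.72 for SOHLH2. Sequencing depth is unknown, so its limit on low genes such as SOHLH2 cannot be stated.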

Other observations

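By the Euclidean distance of the 4 log2(TPM + 1) values, each centred on its mean, the gene nearest to UHRF1 among 9742 genes with a mean of at least 10 TPM was its own processed pseudogene ENSG00000256663, at a distance of 0.218. Next came ACY3, an aminoacylase gene, at 0.224, with 21.6 and 18.8 TPM in NC against 6.49 and 8.66 TPM in sh-ANP32B samples. HROB, which helps to recruit a helicase in DNA repair, lay at 0.240, with 21.6 and 17.2 TPM in NC against 8.31 and 11.8 TPM in sh-ANP32B samples. These genes also lay higher in NC replicate 1 than in NC replicate 2 and higher in sh-ANP32B replicate 2 than in sh-ANP32B replicate 1, as UHRF1 did. The likeness was measured over 4 samples only.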
